A study of Mus musculus and Acomys cahirinus with 25 samples.

Results

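The Hedgehog and ectodysplasin genes of the hair placode were followed in laboratory and spiny mouse wounds. They were 9 genes of the 24500 counted, chosen by name from the pathways: Shh, Ptch1, Hhip, Gli1, Gli2 and Gli3 of the Hedgehog pathway, and Eda, Edar and Edaradd of the ectodysplasin pathway. All 9 were present in each of the 25 count tables. Values are CPM, the counts of a gene scaled to a common total of reads on genes in each library, and 3 counts were taken as the smallest detectable amount.

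SHH is a secreted ligand made by the epithelium of the placode and later of the growing follicle. Its binding to the receptor PTCH1 lifts the block on SMO and sets the GLI transcription factors to work, and Ptch1, Hhip and Gli1 are themselves transcribed in responding cells. EDA is a ligand of the TNF family whose receptor EDAR acts through the adaptor EDARADD and NF-kB, and loss of this pathway impairs hair placodes in the embryo.

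The study asked what sets the place where hair follicles form anew in a healed wound. Bulk RNA-seq was made from the dorsal epidermis and dermis of wild-type (WT) laboratory mice (Mus musculus, C57Bl/6, wounded full thickness at an age given as 4 weeks in the study's methods and 3 weeks in its results) at post-wound day (PWD) 14. The wound center, where new follicles form, was separated from the wound margin by a punch. Groups were epidermis center (2 libraries), epidermis margin (2), dermis center (5), dermis margin (2), and the center dermis of K14-Cre-Twist1 mice (KO, 2), in which a keratin 14 promoter deletes Twist1 in keratinocytes and not in fibroblasts. Dorsal skin before wounding (PWD0) and whole dorsal wounds of WT spiny mice (Acomys cahirinus), which form follicles across the wound bed, were also used. They gave epidermis at PWD0, 14, 21 and 28 (1, 2, 2 and 1 libraries) and dermis at the same days (2, 1, 2 and 1). The spiny mice were 2 months old per the methods. The labels call all 5 center dermis libraries of laboratory mice outside the KO group WT. The methods name Twist1+/+ mice as controls of the transgenic animals, and the labels do not say which of the 5 came from such controls. The days are those of the labels, and the study's own sample list gives days that differ by 1 or 2 for the same spiny mouse libraries after PWD0. No label says which libraries came from separate animals. The study describes its RNA-seq replicates as independent. It gives no pairing of center with margin or of epidermis with dermis, so p-values measure the spread between these libraries. In bulk tissue, fewer cells of a type and less RNA per cell cannot be told apart.

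Reads on genes ranged from 19413261 to 86532134 in the laboratory mouse libraries and from 5669760 to 34751956 in the spiny mouse libraries, so 3 counts were between 0.0347 and 0.529 CPM. The laboratory mouse libraries held 243 to 912 genes with 1 to 5 counts and the shallower spiny mouse libraries 1671 to 3140, so a count of 0 in a laboratory mouse library was not read as a level of 0. Fibroblast markers (13 genes) summed to 67955 CPM or more in every dermis library and to 5320 or less in every epidermis library. One KO library stood apart from its partner: its 7 suprabasal keratinocyte markers summed to 29008 CPM, against 391 in the other KO library and at most 361 in WT center dermis. That library, KO replicate 2, had a count in 12075 genes against 14417 in replicate 1. Twist1 itself was at 73.4 and 44.0 CPM in the KO dermis and between 36.3 and 159 CPM in the 5 WT center dermis libraries. A keratinocyte deletion is not checked by dermal RNA.

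The genes lie on 6 mouse chromosomes (GRCm38, RefSeq positions). Shh is at chr5:28456840-28467101, Ptch1 at chr13:63508328-63573460, Hhip at chr8:79965850-80058060, Gli1 at chr10:127329882-127341579, Gli2 at chr1:118834061-119054405 and Gli3 at chr13:15463723-15730026. Eda is at chrX:99975606-100400760, Edar at chr10:58600780-58675696 and Edaradd at chr13:12471209-12520535. Exons of Shh, Hhip, Gli1 and Gli3 are overlapped by annotated genes on the other strand, so reads of the spiny mouse libraries, which do not keep strand, cannot be told apart there. Ptch1 and Hhip are known direct Hedgehog targets, and both rose in spiny mouse dermis below. Their upstream sequence is therefore shown, from 250 to 61 bases before the RefSeq start (GRCm38.p6), 5′ to 3′ on the minus strand. The Ptch1 stretch, chr13:63565796-63565985, lies inside the gene's span, before the start of an inner transcript, and the Hhip stretch is chr8:80058069-80058258.
Ptch1: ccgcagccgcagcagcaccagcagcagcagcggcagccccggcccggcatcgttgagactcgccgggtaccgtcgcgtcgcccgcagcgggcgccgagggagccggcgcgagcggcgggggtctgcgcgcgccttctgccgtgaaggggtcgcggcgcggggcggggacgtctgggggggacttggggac
Hhip: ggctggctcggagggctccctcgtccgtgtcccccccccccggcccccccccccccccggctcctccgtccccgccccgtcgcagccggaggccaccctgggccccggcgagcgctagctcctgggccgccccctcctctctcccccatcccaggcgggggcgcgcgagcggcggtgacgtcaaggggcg
RefSeq start regions were at hand for 7 of the 9 members, all but Shh and Gli1. The 9-letter GLI consensus GACCACCCA was searched on both strands of the 250 bases before each start, and none of the 7 held it, nor GACCNCCCA, in which any base may stand at position 5 and which includes the first motif. Among all 32851 start regions, 0.225% held the first and 0.868% the second. All letters are in lower case because no match was found.

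In laboratory mouse epidermis at PWD14, the ligand Shh had few or no counts in the center and in the margin. Both center libraries and margin replicate 1 had 0 Shh counts, and margin replicate 2 had 22 counts (0.254 CPM). Ptch1 was at 2.50 and 2.57 CPM in the center and at 3.0 and 4.26 CPM in the margin, with both margin libraries above both center libraries. Gli1, the pathway's standard readout, was at 0.162 and 0.326 CPM in the center and at 0 and 0.601 CPM in the margin, so the groups overlapped. Hhip, the membrane-bound trap for Hedgehog ligands, had 24 and 0 counts in the center and 10 and 0 in the margin. Shh, Hhip and Gli1 were therefore at 0.601 CPM or less in every epidermis library, while Ptch1 was at 2.50 CPM or more.

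The remaining GLI factors were higher than the readout in this layer. Gli2, the main activator, was at 5.30 and 8.45 CPM in the center and at 6.72 and 2.46 CPM in the margin. Gli3, largely a repressor, was at 9.34 and 5.88 CPM in the center and at 2.95 and 4.41 CPM in the margin, without overlap. Eda was at 2.44 and 1.92 CPM in the center and at 3.06 and 1.83 CPM in the margin. Edar had 10 and 20 counts in the center and 0 and 20 in the margin, while Edaradd was the best expressed of the ectodysplasin genes, at 8.66 and 9.62 CPM in the center and at 11.0 and 18.0 CPM in the margin.

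None of the 8 members that passed the low-count filter was called different between center and margin of the epidermis. Their Benjamini-Hochberg adjusted p (FDR, edgeR quasi-likelihood test) was 0.222 or more. In this comparison 1.24% of the 14165 tested genes were called at an FDR under 0.05. At an unadjusted p under 0.05 the members' count was also 0, as it was by DESeq2 and by the likelihood ratio test of edgeR. The lowest FDR was that of Edaradd, with a log2 fold change of -0.78 ± 0.33 (SE), and the fold change of Gli3 was 0.91 ± 0.41 (FDR 0.247). The calls changed with 1 margin library left out, where the remaining one is assumed to vary like the center pair: without margin replicate 1, Edaradd was lower in the center (log2 fold change -1.02, FDR 0.000705) and Gli2 higher (1.43, FDR 0.0053), and without margin replicate 2, Gli3 was higher (1.23, FDR 0.0113). Fibroblast markers summed to 4416 and 5320 CPM in the center and to 684 and 2007 CPM in the margin. Among hair matrix and shaft markers, the keratin gene Krt73 was called lower in the center (edgeR quasi-likelihood test, FDR 0.0367) and Padi3 higher (FDR 0.0418). The other markers of that list that were tested were not called. The part of fibroblast or hair RNA in these values was not tested.

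The other placode and Hedgehog genes of the epidermis gave no call in this comparison. Of 20 other Hedgehog genes 15 were tested, of 15 other ectodysplasin genes 15, of 14 placode genes 9 and of 14 dermal condensate genes 8, and 0 were called, with 2, 6, 1 and 3 at an unadjusted p under 0.05. The list medians were 0.25, 0.25, 0.47 and 0.06 on the log2 scale, against -0.02 over all tested genes. The placode genes Dkk4 and Fgf20, a Wnt inhibitor and a growth factor, had 0 counts in all 4 epidermis libraries. Lef1, a transcription factor of the Wnt pathway, had 17 and 29 counts in the center and 0 and 25 in the margin. The Wnt ligand Wnt10b was at 9.66 and 8.30 CPM in the center and at 0.283 and 4.51 CPM in the margin (log2 fold change 1.58 ± 0.72, FDR 0.25). Smo, the signal transducer of the Hedgehog pathway, was at 55.8 and 46.8 CPM in the center and at 70.7 and 66.2 CPM in the margin (-0.52 ± 0.22, FDR 0.22). Sufu, a GLI inhibitor, had a log2 fold change of 0.35 ± 0.33 (FDR 0.544). Tnfrsf19, a receptor related to EDAR, was at 30.7 and 18.1 CPM in the center and at 78.7 and 47.6 CPM in the margin (-1.49 ± 0.39, FDR 0.124).

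In laboratory mouse dermis, Shh was found mainly in the margin. The 2 center libraries grouped with the margin in the study's heatmaps, replicates 1 and 2, had 0 and 0 Shh counts and the margin libraries 38 and 56 (1.64 and 2.52 CPM), a margin level at least 13.5-fold higher than 3 counts in a center library. The 3 other WT center libraries had 0, 8 and 0 counts, so both margin libraries were above all 5 centers. Edar followed the same split, with 0 counts in all 5 WT center libraries and 29 and 48 in the margin, at least 11-fold above 3 counts. Hhip had 0 and 0 counts in center replicates 1 and 2 and 20 and 63 in the margin, at least 12-fold above 3 counts. The other centers had 74, 7 and 0 Hhip counts, so that it overlapped when all 5 were used. A count of 0 was not read as a level of 0, so these folds hold only against the limit of 3 counts.

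The adaptor and the ligand of the ectodysplasin pathway were also higher in every dermis margin library than in every center library. The share of all genes with this split, which Shh and Edar also had, is not given here. Edaradd was at 0.453, 0, 1.15, 1.06 and 0 CPM in center replicates 1 to 5 and at 1.98 and 7.44 CPM in the margin. Eda was at 1.81, 5.15, 1.57, 7.0 and 8.81 CPM in the centers and at 12.7 and 12.5 CPM in the margin, a mean of 12.6 ± 0.157 (SD, n = 2) against 4.87 ± 3.18 (n = 5). Ptch1 was at 6.66 and 7.21 CPM in center replicates 1 and 2, at 23.2, 14.9 and 12.6 CPM in the other centers and at 9.56 and 24.5 CPM in the margin. The order of Ptch1 between regions therefore depended on which centers were used.

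The GLI factors did not separate the regions of the dermis. Gli1 was at 9.70, 15, 5.73, 7.11 and 5.28 CPM in the 5 centers and at 10.7 and 30.2 CPM in the margin. Gli2 was at 7.75, 13.3, 23.7, 20.3 and 35.8 CPM in the centers and at 7.75 and 16.8 CPM in the margin. Gli3 was the steadiest member, at 59.5, 50.7, 59.1, 45.7 and 68.0 CPM in the centers and at 64.6 and 54.2 CPM in the margin.

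**Figure D1:**
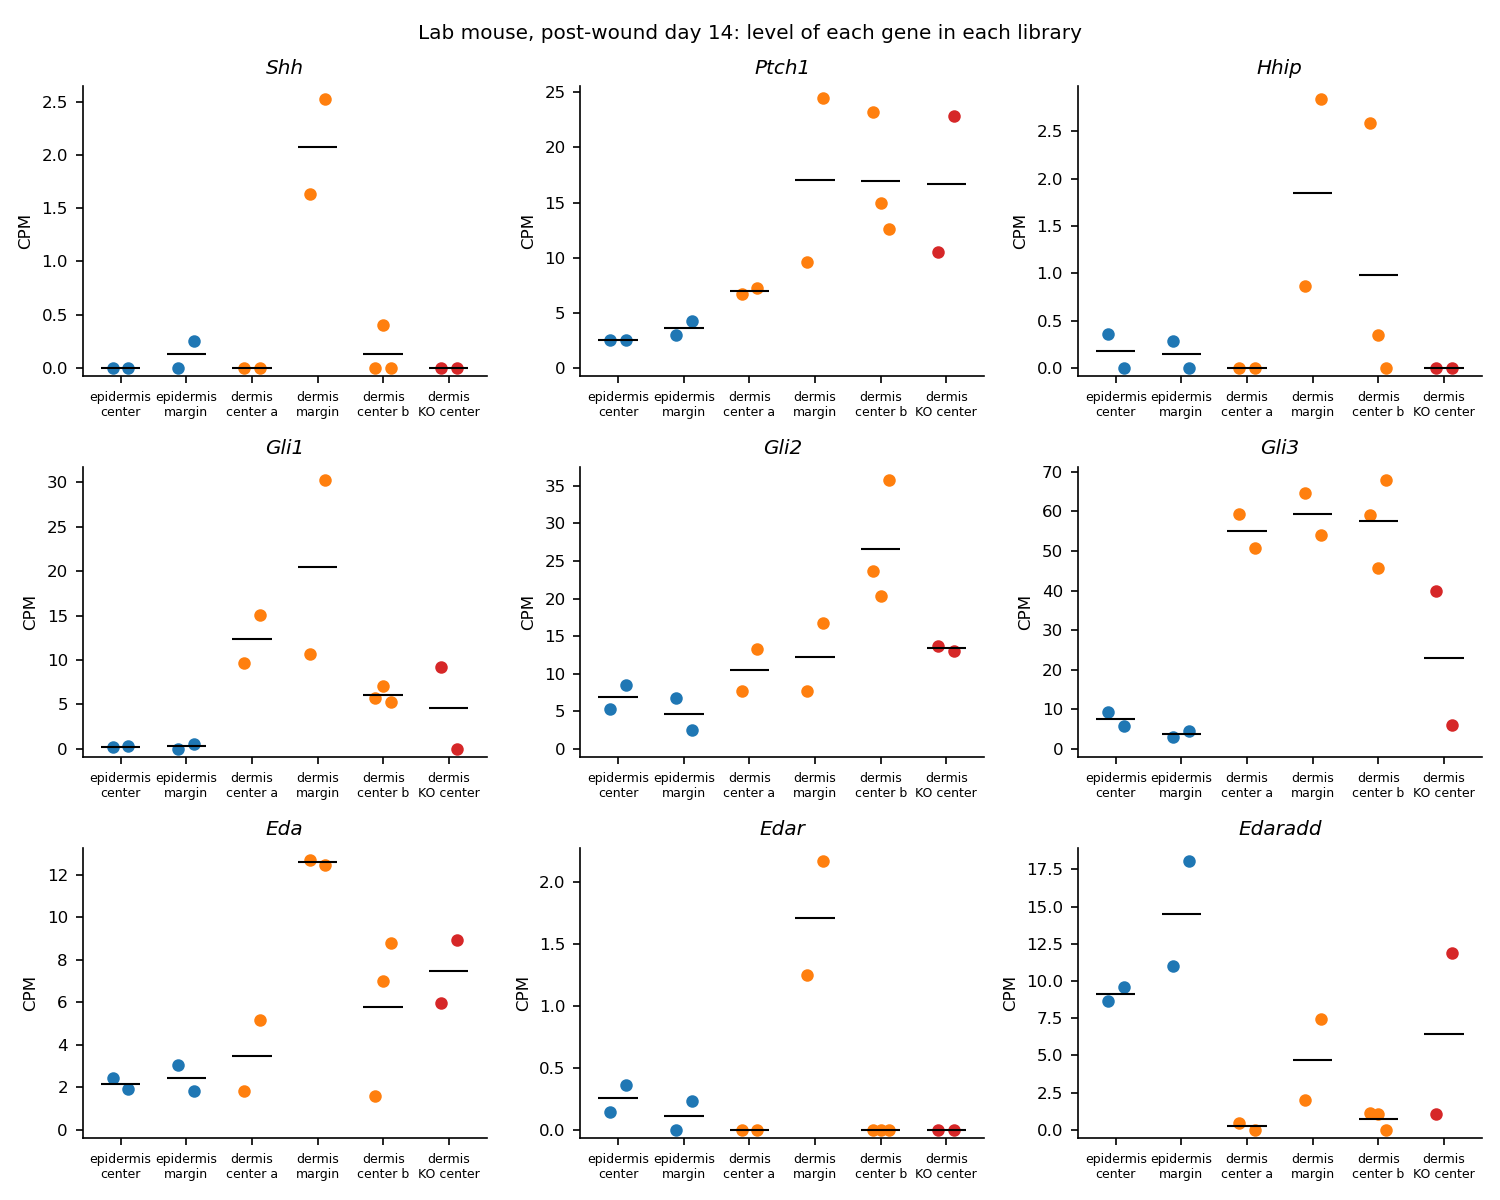
Level of each gene (CPM, vertical axes, each with its own scale) in each of the 13 laboratory mouse libraries (points) with the group mean (line); center a marks the 2 WT center dermis libraries grouped with the margin in the study's heatmaps and center b the 3 grouped with the KO. Shh, Edar, Eda and Edaradd are higher in both dermis margin libraries than in all 5 WT center dermis libraries. The share of all genes with this split is not given here, and the edgeR quasi-likelihood test called none of the genes shown between these regions. Gli1 is at 0.601 CPM or less in all 4 epidermis libraries.

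The test across all genes called 0 of the 9 members between the dermis regions (edgeR quasi-likelihood test), while 0.85% of 14698 tested genes were called. Of the members, 5 had an unadjusted p under 0.05, all lower in the center: Shh (FDR 0.233), Hhip (0.254), Edar (0.241), Edaradd (0.242) and Eda (0.258, log2 fold change -1.81 ± 0.72). DESeq2 called 0 members and the likelihood ratio test 3, Shh, Hhip and Edar (FDR 0.0219, 0.0313 and 0.0292). Hair matrix and shaft markers (13 genes) summed to 885 and 909 CPM in the margin, with all 13 counted in both libraries, and to between 0 and 11.4 CPM in the 5 centers, with at most 5 counted. In all, 644 genes (3.85% of those with a count in these 4 libraries) were at 0 in both center libraries and had 10 or more counts in each margin library, Shh, Hhip and Edar among them, and 330 of the 644 were at 0 in all 5 centers. The part of follicles in the margin values was not tested. Of the other lists, 19 Hedgehog, 15 ectodysplasin, 10 placode and 13 dermal condensate genes were tested and 0 were called, with 3, 1, 0 and 3 at an unadjusted p under 0.05 and list medians of 0.16, 0.00, -0.50 and 0.03 against -0.03 over all genes. An interaction term compared the center-margin difference of one layer with that of the other, on the same libraries: 0 of 9 members and 3.48% of 15531 genes were called, with 2 members at an unadjusted p under 0.05 and 0 called by DESeq2. In the same test 1 of 14 dermal condensate genes was called, the retinoid-binding protein gene Crabp1 (2.02 ± 0.43, FDR 0.0272).

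In the center dermis of K14-Cre-Twist1 mice no member was called different from WT, and several differed widely between the 2 KO libraries. Shh, Hhip and Edar had 0 counts in both KO libraries. Ptch1 was at 10.5 and 22.8 CPM, Gli1 at 9.22 and 0 CPM, Gli2 at 13.7 and 13 CPM and Gli3 at 40.0 and 6.04 CPM in KO replicates 1 and 2. Eda was at 5.98 and 8.94 CPM and Edaradd at 1.08 and 11.8 CPM. The value of KO replicate 2 was the lower for Gli1, Gli2 and Gli3 and the higher for Ptch1, Eda and Edaradd. By mean CPM in WT mice, Edaradd was higher in epidermis than in dermis, and Gli1, Gli2, Gli3, Ptch1 and Eda were lower. In the wound center the layers overlapped for Gli2 and Eda. Their fitted log2 fold changes of epidermis over dermis there were 0.18 and 0.14 (edgeR quasi-likelihood test, FDR 0.759 and 0.874). KO replicate 2 is the library with the keratinocyte markers given above, and their part in these values was not tested.

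Of the 6 members tested between KO and WT (center replicates 3 to 5, which the study's heatmaps group with the KO), 0 were called by edgeR's quasi-likelihood test, DESeq2 or the likelihood ratio test, and 0.0565% of 14163 genes were called in all. One member, Edaradd, had an unadjusted p under 0.05 (FDR 0.389). The log2 fold changes were -1.01 ± 0.47 for Gli2 (FDR 0.451) and -1.32 ± 0.64 for Gli3 (FDR 0.459). Without KO replicate 1, which leaves the library with keratinocyte markers, Gli3 was called lower (-3.31, FDR 0.00208) and Edaradd had an FDR of 0.0188. Without KO replicate 2, Gli3 was 0.50 lower on the log2 scale and was not called. Of the other lists, 19 Hedgehog, 15 ectodysplasin, 9 placode and 10 dermal condensate genes were tested, with 0 calls and 2, 1, 1 and 1 genes at an unadjusted p under 0.05. Their medians were -0.29, 0.20, 0.08 and -0.71 against -0.07 over all genes.

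Layer was then compared within each region, on libraries that also enter the region comparisons. In the wound center, Gli1 averaged 0.244 ± 0.116 CPM in epidermis and 12.4 CPM in center dermis replicates 1 and 2, 50.7-fold more in dermis. In the margin it was at 0 and 0.601 CPM in epidermis and at 10.7 and 30.2 CPM in dermis, without overlap. Gli3 was 7.24-fold higher in center dermis and 16.1-fold higher in margin dermis. Edaradd had the opposite order, with 8.66 and 9.62 CPM in center epidermis against 0.453 and 0 CPM in center dermis, and 3.08-fold more in margin epidermis. These 3 were the members called in each region, 3 of 6 tested in the center and 3 of 9 in the margin, where 56.1% and 47.9% of all tested genes were called.

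The fitted log2 fold changes of epidermis over dermis were -4.89 ± 0.63 for Gli1 (edgeR quasi-likelihood test, FDR 0.00238) and -2.07 ± 0.31 for Gli3 (FDR 0.00395) in the center. In the margin they were -3.17 ± 0.44 for Gli3 (FDR 0.000221) and 2.48 ± 0.64 for Edaradd (FDR 0.00961), and Gli1 had an FDR of 0.00162. The margin call of Edaradd was lost without dermis margin replicate 1 (1.86, FDR 0.0969), with no TMM factor (1.65, FDR 0.0748) and with all laboratory mouse libraries in 1 fit (2.45, FDR 0.0515). With no TMM factor the median of all genes moved from 0.05 to -0.73 in the center and from -0.16 to -0.98 in the margin, so these folds are relative to that scaling. The split of called genes, higher against lower in epidermis, was 4208 against 3835 in the center and 2436 against 6159 with no TMM factor. In the margin it was 3130 against 4033, and 1595 against 6191 with no TMM factor. The layers also differ in paired-end against single-end reads, and layer and read type cannot be told apart. Of 16 other Hedgehog genes tested in the center, 2 were higher and 11 lower in epidermis (list median -2.07). Of 19 in the margin, 0 were higher and 13 lower in epidermis (list median -2.4). Among the lower were the SHH-releasing protein gene Scube2 in the center (-6.35 ± 0.64, FDR 0.000701) and the ligand gene Dhh in the margin (-6.85 ± 1.06, FDR 0.000322).

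Per kilobase of exon, the scale on which genes can be compared, Gli3 was the highest member in the dermis. Its level was 5.90 ± 0.899 reads per kilobase of exon, scaled to CPM (SD, n = 5) in WT center dermis, above Gli2 at 2.94 ± 1.56, Gli1 at 1.72 ± 0.802, Ptch1 at 0.911 ± 0.476 and Eda at 0.714 ± 0.465. In this order Gli2 and Gli1, Gli1 and Ptch1, and Ptch1 and Eda overlapped within 1 SD of each mean. In center epidermis Edaradd was highest at 1.37 ± 0.102 (n = 2), followed by Gli2 at 1.0 ± 0.324 and Gli3 at 0.793 ± 0.255, and each overlapped with its neighbour in this order within 1 SD of each mean. Lengths are those of mouse exons, so no such level was computed for the spiny mouse.

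In spiny mouse epidermis the Hedgehog ligand, receptor and readout were low at PWD14 and high at PWD28. Shh started from 4.63 CPM at PWD0, stood at 1.47 and 2.17 CPM in the PWD14 pair, and reached 7.80 and 3.71 CPM in the PWD21 pair and 59.8 CPM in the PWD28 library. Ptch1 was at 24.3 CPM, then 1.16 and 1.53, then 8.96 and 9.02, and then 76.8 CPM. Gli1 ran from 15.2 CPM to 2.48 and 2.30, then 15.7 and 13.8, and then 55.8 CPM. All 3 genes were lowest in the PWD14 pair, and the PWD14 and PWD21 libraries did not overlap.

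Gli2 took the same course, at 9.44 CPM, then 0.388 and 1.85, then 5.94 and 5.02, and then 25.7 CPM. Gli3 differed: it was at 12 CPM, then 7.52 and 3.76, then 3.78 and 3.94, and then 16.7 CPM, with PWD14 and PWD21 overlapping. Hhip had 8 counts or less in each of the 6 libraries. Edar was at 1.32 CPM, then 0 and 0.447, then 0.857 and 1.31, and then 8.42 CPM, its highest value in these 6 libraries. Edaradd was at 9.63 CPM, then 3.02 and 3.57, then 5.20 and 4.80, and then 11.8 CPM. Eda stayed between 1.47 and 5.65 CPM in all 6.

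**Figure D2:**
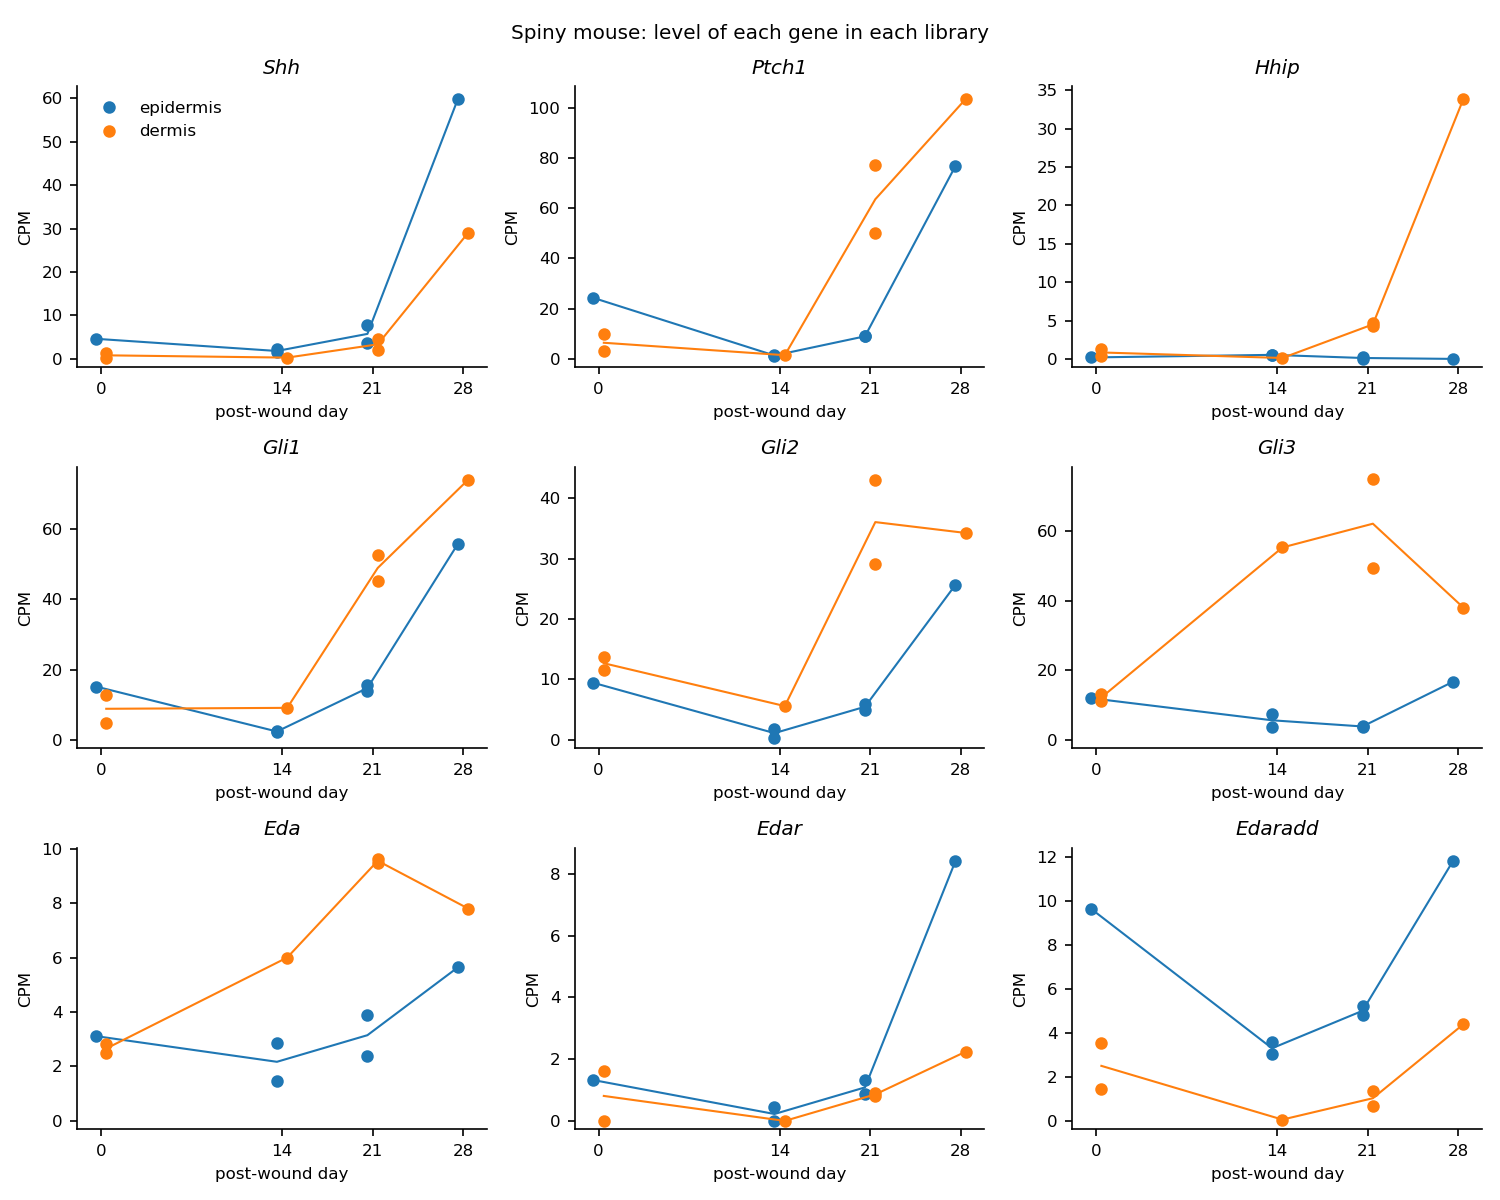
Level of each gene (CPM, vertical axes, each with its own scale) against post-wound day in the 6 epidermis and 6 dermis libraries of the spiny mouse; points are libraries and lines join the day means. In epidermis 8 of the 9 genes are highest in the 1 PWD28 library, all but Hhip, and in dermis Gli2, Gli3 and Eda instead have their highest day mean at PWD21.

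PWD14 against PWD21 was the only pair of epidermis days with 2 libraries each. Of 8 members tested, 3 were lower at PWD14 (edgeR quasi-likelihood test): Ptch1 (log2 fold change -2.17 ± 0.38, FDR 0.00102), Gli1 (-2.09 ± 0.32, FDR 0.000477) and Gli2 (-1.69 ± 0.51, FDR 0.0181). One was higher, Gli3 (1.07 ± 0.39, FDR 0.0396). Over all 12889 tested genes, 23.2% were called lower and 23.4% higher. Shh was not called (-1.17 ± 0.48, FDR 0.0673), nor was Edar (FDR 0.2), Edaradd (-0.06 ± 0.34) or Eda (-0.03 ± 0.45).

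The calls of Ptch1 and Gli1 were kept in all 12 alternatives, with log2 fold changes from -2.72 to -2.04 and from -2.64 to -1.98. Gli2 was not called without PWD14 replicate 1 (-1.08, FDR 0.0532) or PWD21 replicate 1 (-1.54, FDR 0.0682). Gli3 was not called in 8 of 12 alternatives, DESeq2 (FDR 0.0566) and no TMM factor (0.52, FDR 0.259) among them, and fell to 0.47 (FDR 0.329) without PWD14 replicate 1. Shh was called without PWD14 replicate 2 (FDR 0.0399) or PWD21 replicate 2 (FDR 0.0251), with no TMM factor (-1.71, FDR 0.0107), by the likelihood ratio test (-1.12, FDR 0.049) and with at least 10 counts in every library (-1.22, FDR 0.044). Leaving out the TMM factor moved the median of all genes from -0.04 to -0.59 and the split from 3010 higher and 2990 lower to 1335 and 5722, and the CPM values above carry that shift.

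In each of the 3 lists of other Hedgehog, ectodysplasin and placode genes, more genes of spiny mouse epidermis were called lower than higher at PWD14, beside the 23.2% lower and 23.4% higher of all genes. Of 16 other Hedgehog genes tested, 1 was higher and 5 lower at PWD14 than at PWD21. The list median of PWD14 over PWD21 was -0.56, against -0.04 over all genes. Disp1, which releases the ligand, was at 4.96 and 4.91 CPM at PWD14 and at 41.5 and 53.7 CPM at PWD21 (-2.71 ± 0.25, FDR 5.16e-05). Smo (-1.55 ± 0.29, FDR 0.00138) and the ciliary gene Evc (-1.30 ± 0.42, FDR 0.0246) were also lower at PWD14. Of 15 other ectodysplasin genes, 2 were higher and 9 lower at PWD14 (median -0.79). Eda2r, a second EDA receptor, was at -3.47 ± 1.22 (FDR 0.0333) and the NF-kB kinase gene Ikbkb at -2.03 ± 0.25 (FDR 0.000133). Of 12 placode genes, 2 were higher and 5 lower at PWD14 (median -0.59). Sostdc1, a BMP and Wnt inhibitor, was at 14.5 and 14.6 CPM at PWD14 and at 83.1 and 97.0 CPM at PWD21 (-2.07 ± 0.19, FDR 5.16e-05). Lef1 and Wnt10b were also lower at PWD14 (-1.67 and -1.5), and Sox9 was higher (1.45). Of 6 dermal condensate genes, Alpl was higher and Bmp4 lower at PWD14 (median -0.30). Basal keratinocyte markers (8 genes) summed to 47422 and 56875 CPM at PWD14 and to 28635 and 32721 CPM at PWD21, and hair matrix and shaft markers to 2011 and 2147 CPM against 2639 and 3652 CPM. The part of either in these changes was not tested.

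In spiny mouse dermis the responding genes were up at PWD21 already. Ptch1 was at 3.0 and 9.85 CPM at PWD0, at 1.47 CPM in the PWD14 library, and at 49.9 and 77.1 CPM in the PWD21 pair, before 103 CPM in the PWD28 library. Gli1 was at 4.94 and 12.8 CPM, then 9.13, then 45.4 and 52.6, and then 74.1 CPM. Hhip was at 0.353 and 1.32 CPM (2 and 9 counts), then 0.118 (2 counts), then 4.70 and 4.29, and then 33.8 CPM. Each of these was higher in both PWD21 libraries than in both PWD0 libraries, and highest at PWD28.

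The ligands were also counted in this layer. Shh was at 0.176 and 1.47 CPM (1 and 10 counts), then 0.294, then 2.10 and 4.60, and then 29.1 CPM. Eda was at 2.82 and 2.50 CPM, then 6.01, then 9.62 and 9.50, and then 7.80 CPM. Gli2 was at 13.8 and 11.6 CPM, then 5.59, then 29.1 and 43.0, and then 34.2 CPM. Gli3 was at 13.2 and 11.2 CPM, then 55.3, then 49.4 and 74.9, and then 38.0 CPM. Like Eda, both had their highest day mean at PWD21 and not at PWD28. The PWD28 value of Gli2 and the PWD14 value of Gli3 lay between those of the PWD21 pair. Gli3 was 4-fold or more above its PWD0 libraries at PWD14 already, when Ptch1 and Gli2 were below theirs. Hhip, at 2 counts in the PWD14 library, was under the limit of 3 counts. Edar was at 2.24 CPM or less in all 6 dermis libraries and Edaradd at 4.39 CPM or less.

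Of the 9 members, all tested, 6 were higher at PWD21 than at PWD0 and 0 lower (edgeR quasi-likelihood test), where 12.1% of 14481 genes were called higher. They were Ptch1 (log2 fold change 3.25 ± 0.50, FDR 0.00303), Gli1 (2.4 ± 0.41, FDR 0.00473), Hhip (2.31 ± 0.64, FDR 0.0305), Gli3 (2.24 ± 0.36, FDR 0.00358), Eda (1.73 ± 0.44, FDR 0.023) and Gli2 (1.39 ± 0.36, FDR 0.0244). The members' median was 1.93 against 0.03 over all genes. Shh was not called (1.93 ± 0.81, FDR 0.11), nor was Edaradd (-1.43 ± 0.73, FDR 0.179) or Edar (FDR 0.986).

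Ptch1, Gli1 and Gli3 were called in all 12 alternatives. Hhip was not called without PWD21 replicate 1 (2.31, FDR 0.194), PWD21 replicate 2 (2.36, FDR 0.206) or PWD0 replicate 1 (1.80, FDR 0.0643). Eda was not called without PWD21 replicate 1 (1.77, FDR 0.139) or 2 (1.72, FDR 0.173), and Gli2 without PWD21 replicate 2 (1.06, FDR 0.192). Without PWD0 replicate 2 Shh was called (4.01, FDR 0.00763), as was Edaradd, lower at PWD21 (-2.04, FDR 0.0298). PWD0 replicate 2 was the higher of its pair for Shh, Ptch1, Hhip and Gli1, and its hair matrix and shaft markers summed to 6273 CPM against 1555 in PWD0 replicate 1 and 2198 and 2564 at PWD21. Their part in these values was not tested.

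**Figure D3:**
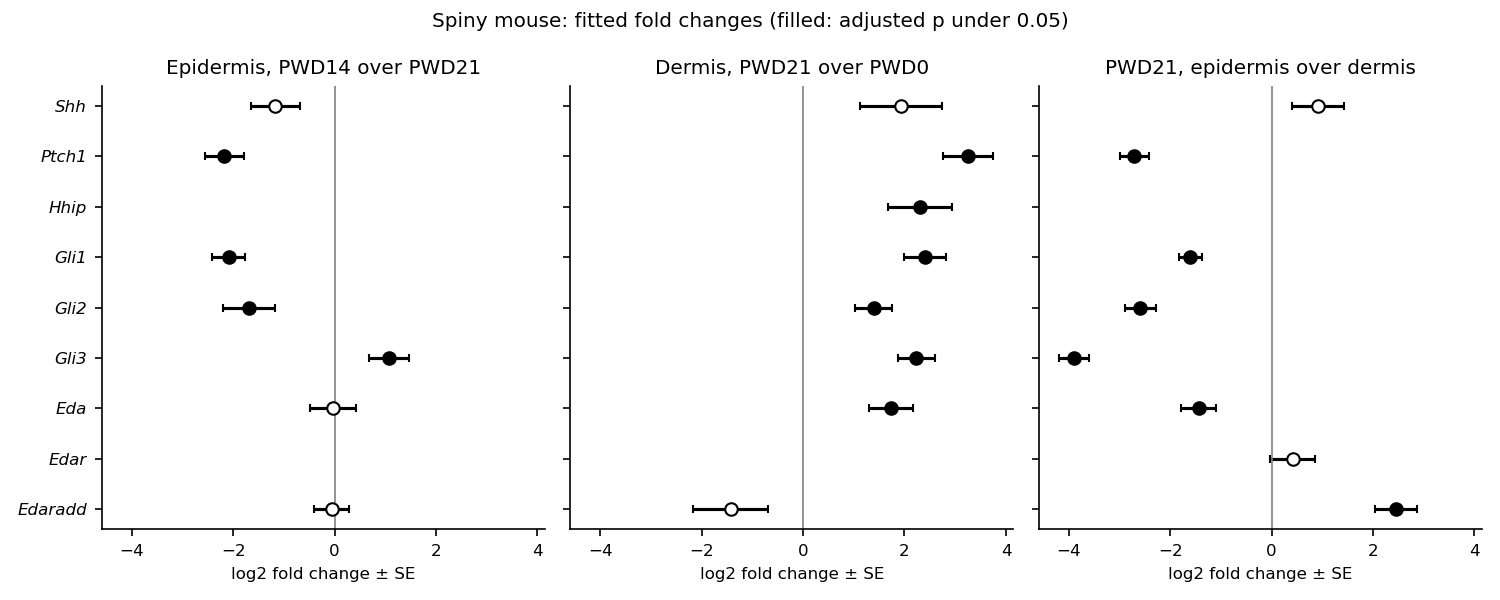
Fitted log2 fold changes (horizontal axis, with standard errors as bars) of the genes in the 3 spiny mouse comparisons with 2 libraries a side; filled points have an FDR under 0.05, and a gene with a 0 count in any library compared is not drawn. Ptch1 and Gli1 are lower at PWD14 than at PWD21 in epidermis, higher at PWD21 than at PWD0 in dermis, and lower in epidermis than in dermis at PWD21.

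Of the 19 other Hedgehog genes tested in spiny mouse dermis, 10 rose, 0 fell and 9 were not called, where 12.1% of all genes rose, with a median of 1.12 against 0.03 over all genes. Scube2 was at 3.17 and 2.94 CPM at PWD0 and at 116 and 139 CPM at PWD21 (5.27 ± 0.35, FDR 0.000189). The co-receptor gene Cdon (2.39 ± 0.35, FDR 0.00259), Scube1 (2.0 ± 0.63, FDR 0.0469) and Smo, from 24.0 and 27.9 to 97.7 and 109 CPM (1.90 ± 0.28, FDR 0.00242), also rose. Of 14 other ectodysplasin genes, 3 rose and 1 fell (median 0.66), with Tnfrsf19 at 2.24 ± 0.33 (FDR 0.00259). Of 13 placode genes, 1 rose and 5 fell (median -1.16): Dkk4 had a log2 fold change of -5.43 ± 0.86 (FDR 0.00361), Sox9 of -3.93, Lhx2 of -3.81 and Sostdc1 of -3.25. These 4 are genes of the placode or of follicle epithelium. Of 14 dermal condensate genes, 5 rose and 1 fell (median 1.30), Tbx18 (3.57 ± 0.44, FDR 0.00123), Alpl (3.03 ± 0.34, FDR 0.000781), the Wnt amplifier gene Rspo3 (1.98 ± 0.37, FDR 0.00685) and Sox18 (1.64 ± 0.48, FDR 0.0373) among those that rose. Basal keratinocyte markers summed to 4151 and 5777 CPM in PWD0 dermis and to 849 and 1187 CPM in PWD21 dermis, so RNA of these markers was lower at PWD21. The hair matrix and shaft marker sums given above did not separate the days. The part of epithelial RNA in the placode list was not tested.

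The layers were compared at PWD21, on libraries that also enter the day comparisons. Shh was at 7.80 and 3.71 CPM in epidermis and at 2.10 and 4.60 CPM in dermis, overlapping (log2 fold change of epidermis over dermis 0.91 ± 0.51, FDR 0.159). Ptch1 was 7.07-fold, Gli2 6.57-fold, Gli3 16.1-fold, Gli1 3.32-fold and Eda 3.03-fold higher in dermis by mean CPM, and Edaradd 4.86-fold higher in epidermis. Hhip had 8 and 0 counts in epidermis and 103 and 149 in dermis. All 7 were called (edgeR quasi-likelihood test, FDR 0.0081 or less), of 9 tested, where 62.9% of 14966 genes were called. The fitted values were -2.71 ± 0.28 for Ptch1, -1.61 ± 0.23 for Gli1, -2.59 ± 0.30 for Gli2, -3.89 ± 0.30 for Gli3, -1.44 ± 0.34 for Eda and 2.46 ± 0.41 for Edaradd. Without epidermis PWD21 replicate 2 Eda was not called (-1.11, FDR 0.0557) and Shh was called higher in epidermis (1.37, FDR 0.0127), and Shh was also called without dermis PWD21 replicate 2 (1.66, FDR 0.0296). Edar was at 0.857 and 1.31 CPM in epidermis and at 0.912 and 0.806 CPM in dermis (0.42 ± 0.44, FDR 0.438). Of 19 other Hedgehog genes, 0 were higher and 16 lower in epidermis (median -2.23 against -0.06 over all genes), Scube3, Dhh, Scube1 and Cdon leading with fitted values from -6.76 to -4.21. Of 15 other ectodysplasin genes 3 were higher and 2 lower (median 0.09), and of 13 placode genes 7 were higher and 4 lower (median 1.20), Dkk4 (3.50 ± 0.61, FDR 0.00184) and Wnt10a (3.23 ± 0.44, FDR 0.000506) highest in epidermis. All 14 dermal condensate genes were called, 1 higher and 13 lower in epidermis (median -4.99).

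PWD28 had 1 library in each layer, so its values have no replicate check. In epidermis it exceeded the mean of the PWD21 pair 10.4-fold for Shh, 8.54-fold for Ptch1, 7.76-fold for Edar, 4.68-fold for Gli2, 4.33-fold for Gli3 and 3.78-fold for Gli1. In dermis it did so 8.67-fold for Shh and 7.53-fold for Hhip, but 1.63-fold for Ptch1 and 1.51-fold for Gli1. Of the members at 1 CPM or more in any library of the layer, 8 of 8 in epidermis and 6 of 9 in dermis had their highest value at PWD28, as did 29.4% of 13764 genes in epidermis and 20.6% of 15034 in dermis. Hair matrix and shaft markers summed to 27576 CPM in PWD28 epidermis and 36410 CPM in PWD28 dermis, against at most 6273 CPM in any other library. The share of growing follicles in the PWD28 levels was not tested.

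**Figure D4:**
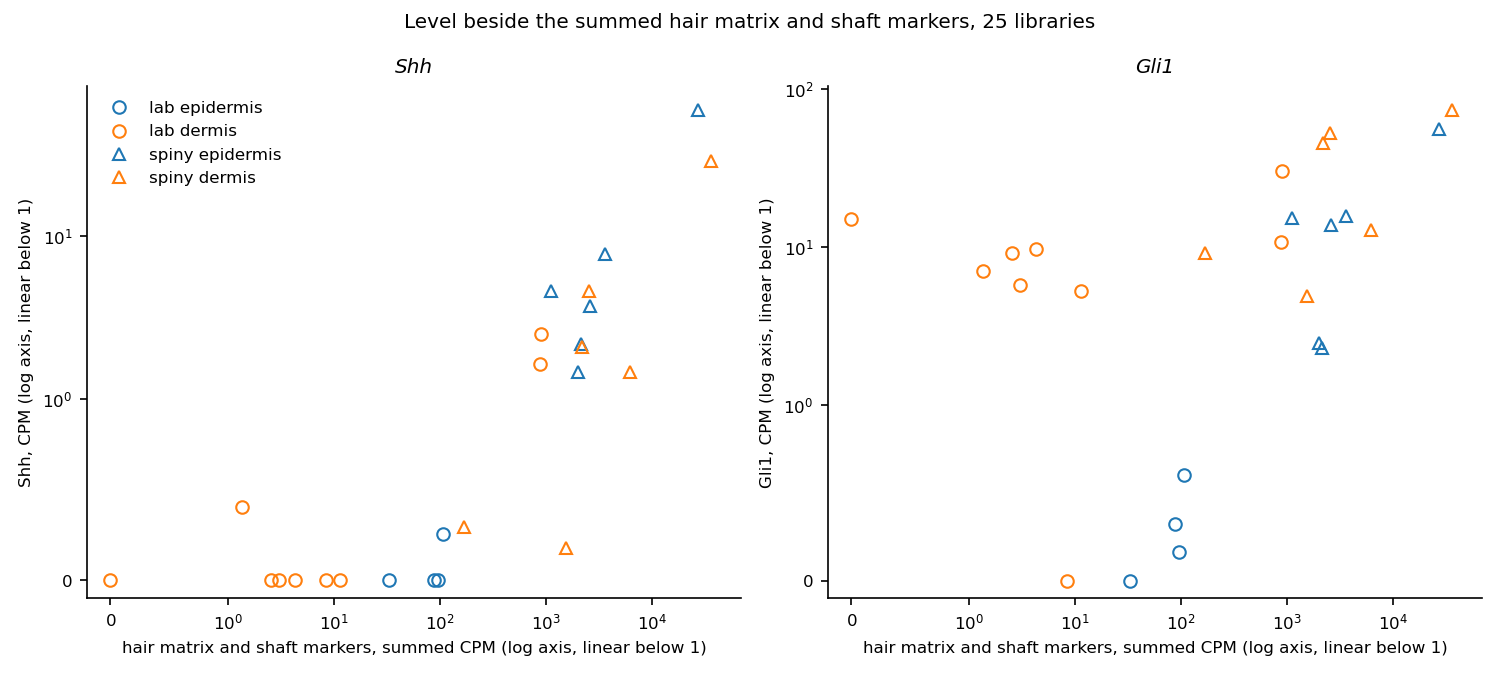
Level of Shh (left) and Gli1 (right) in CPM against the summed CPM of 13 hair matrix and shaft markers in each of the 25 libraries, on log axes that are linear below 1; circles are laboratory mouse, triangles spiny mouse, blue epidermis and orange dermis. Every library with Shh above 1 CPM has a marker sum of 885 CPM or more. The reverse does not hold: Shh is at 0.176 CPM in a spiny mouse PWD0 dermis library whose marker sum is above 885 CPM. Gli1 reaches 15 CPM in a laboratory mouse dermis library with a marker sum of 0.

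The genes whose levels were most like those of the members were found by Pearson correlation of log2(CPM + 0.5), as a description over libraries that share layers and depth. Over the 13 laboratory mouse libraries and 13963 genes of 1 CPM or more on average, Shh was nearest to Gprc5d (r = 0.984), Krt86 (0.98) and Tgm6 (0.962), and Edar to S100a3 (0.955), Tgm6 (0.952) and Krt33a (0.95). Krt86 and Krt33a are hair keratins, and both members were at 0 in most of these libraries. Gli1 was nearest to Adam11 (0.982), C1s2 (0.981) and Zmat1 (0.98), and Ptch1 to Tcea3 (0.947), Zcchc11 (0.939) and Srp19 (0.938). Over the 12 spiny mouse libraries Shh was nearest to Rhcg (0.953), Otop2 (0.95) and Nav2 (0.929), Gli1 to Helq (0.965), Fnbp1l (0.964) and Ints7 (0.963), Ptch1 to Tab2 (0.966), Tnks (0.965) and Csnk1g1 (0.964), and Edar to Plppr4 (0.925), Rnf135 (0.921) and Rttn (0.921). No gene was among the 3 nearest in both species for any of the 4 members.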

How the data were processed

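Per the labels and the study's methods, the authors aligned the reads of all libraries, spiny mouse included, by STAR to mm10 (STAR 2.6.1d in the methods, 2.4.1d in the submitters' processing notes) and counted reads on RefSeq genes with htseq-count 0.6.0. The deposited values are raw counts. The strand option of the counting is not given in the sources used here. Spiny mouse reads that differ from mm10 can be lost, so species are not compared. In each table the 5 summary lines were left out, and 24500 gene rows remained.

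CPM is counts over the sum of all gene rows. Tests used edgeR 4.0.16 in R 4.3.3 on the counts of the compared libraries: TMM, filterByExpr, quasi-likelihood test, Benjamini-Hochberg over all tested genes, threshold 0.05. On simulated counts, between 60% and 100% of 200 genes changed by 3 on the log2 scale were recovered, the least in the KO comparison. A fitted fold is not given where a compared library has 0 counts. The 5 WT center dermis libraries were split as in the study's heatmaps, 2 with the margin and 3 with the KO. 

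The members and lists were chosen with earlier results of these data known. All members are named in every group. From each list at most 4 called genes of largest change per comparison were eligible for naming, plus 8 genes in laboratory mouse epidermis whatever their value. Of the genes so eligible, 1 is not reported here. Alternatives were DESeq2 1.42.0, other edgeR tests, normalizations and filters, and each library left out. Where that leaves 1 library in a group, it is assumed to vary like the other group.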

Additional observations from a re-analysis of the deposited data

Results flagged for a closer look

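In the 5 WT center dermis libraries of the laboratory mouse, 2 members had 1 library far above the rest by Dixon's test at 95%. Shh was at 0.403 CPM (8 counts) in replicate 4 and at 0 in the other 4. Hhip was at 2.59 CPM (74 counts) in replicate 3, next to 0.353 CPM in replicate 4 and 0 in the other 3. The test was applied to 8 members in this group, since Edar was at 0 throughout. Chance flags about 1 in 20 groups of continuous values, and that rate does not hold where most libraries are at 0: with 4 libraries at 0, as for Shh, any count in the fifth is singled out.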

How the results depend on the processing

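No paired analysis was possible because the labels give the libraries no replicate numbers shared between groups. Of 505 member results under other settings, 479 kept direction and call, 7 lost the call, 13 gained it and 6 turned direction; of 261 with 1 library left out these were 216, 13, 14 and 18. The cause was not tested.

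Called genes in laboratory mouse epidermis, center against margin (176), were 1511 by DESeq2, 1533 by the likelihood ratio test, 0 by the legacy quasi-likelihood test, 479 with all libraries of the species in 1 fit, and 70 to 7409 with 1 library left out. In dermis (125) they were 738, 886, 54 and 3 in that order, 323 with all 5 WT centers and 19 to 240. For KO against WT (8) they were 787, 214, 2 and 229, 190 with all 5, 0 with at least 10 counts in every library and 1 to 3357. For the interaction (540) they were 1127 by DESeq2 and 167 to 1342. With 1 library left out, counts ran from 3465 to 6642 in spiny mouse epidermis (6000), 1299 to 5118 in dermis (3793), 4899 to 10992 between layers in the laboratory mouse center (8043) and 4497 to 7625 in the margin (7163).

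Directions turned for Gli2 (0.94) and Gli3 (0.11) in laboratory mouse dermis and Ptch1 (0.35) in the KO with all 5 WT centers, for Eda in spiny mouse epidermis by DESeq2 (0.018), and between layers of the laboratory mouse center with no TMM factor for Gli2 (-0.62) and Eda (-0.65). With 1 library left out, ranges that crossed 0 were -0.14 to 1.43 (Gli2) and -0.63 to 0.24 (Eda) in laboratory mouse epidermis; -1.17 to 0.24 (Gli1), -0.56 to 0.47 (Gli2) and -0.18 to 0.16 (Gli3) in its dermis; -0.67 to 0.37 (Ptch1) and -0.088 to 0.91 (Eda) for the KO; -0.57 to 0.44 (Eda) and -0.15 to 0.019 (Edaradd) in spiny mouse epidermis; and -0.17 to 0.59 (Gli2) and -0.39 to 1.06 (Eda) between layers of the laboratory mouse center. None of these members was called in that comparison, apart from Gli2 without epidermis margin replicate 1.

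With TMM-adjusted CPM, 20 of 81 group means moved by more than 1 SD. The laboratory mouse group with the highest mean changed to KO dermis for Ptch1 (14.6 CPM) and WT center dermis for Gli3 (49.6 CPM), and the highest spiny mouse dermis day of Gli3 changed from 21 to 14 (60.3 CPM). Low counts limit Shh, Hhip and Edar in the laboratory mouse.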
